A study of Mus musculus with 32 samples.

Results

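The insulin-like growth factor (IGF) system is described here by 10 genes of the 55103 rows in the deposited table: the binding proteins Igfbp2, Igfbp3, Igfbp4, Igfbp5, Igfbp6 and Igfbp7, the ligands Igf1 and Igf2, and the receptors Igf1r and Igf2r. Igfbp2 was chosen on its measured values, a higher level in tumours treated with photons than in their controls, so its values in every comparison with photon libraries are a description and carry no test. The other 9 genes belong to the same family and pathway. All 10 passed the filter on low counts.

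Bulk RNA sequencing of KPC36 tumours, a mouse model of pancreatic ductal adenocarcinoma, gave 32 libraries in 4 groups of 8. The groups were carbon_ctrl (untreated tumours of the carbon-ion arm), carbon_treated (tumours given carbon ions), photon_ctrl (untreated tumours of the photon arm) and photon_treated (tumours given photons). Carbon ions are charged particles that give up most of their energy near the end of their track; photons, as used in conventional radiotherapy, deposit dose along the whole track. Tumours were collected at 2 times after treatment, but the labels do not give the time of each library, and the dose, the strain, sex and age of the host mice and the place of the tumours are likewise not given there. All groups share the KPC36 line, so 1 line stands for the disease. Nothing in the labels says that each library came from a separate animal, and p-values therefore measure the spread between these libraries. Library titles start with D or M, 2 letters whose meaning is not stated: D occurs in 4 carbon-ion controls, 3 carbon-ion irradiated libraries and no photon library. The title numbers of the photon controls (19 to 48) all lie below those of the photon-irradiated libraries (95 and up), so whatever the numbers stand for and photon treatment cannot be told apart.

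Library totals ranged from 13891863 to 71645903 estimated counts, and the lowest belonged to photon-irradiated replicate 3. Epithelial markers gave scores (mean log2 CPM over the list, where CPM is the count relative to the scaled library total) between 5.22 and 7.21 in every library, and all 10 were measurable, whereas none of 5 pancreatic islet markers and 1 of 6 acinar markers passed the filter. Markers of fibroblasts, macrophages and endothelium passed the filter in full, so each library holds RNA of several cell types. In such bulk samples, fewer cells of a type and less RNA per cell cannot be told apart.

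IGF1 and IGF2 are secreted ligands that signal through the receptor tyrosine kinase IGF1R to the PI3K-AKT and MAPK pathways and promote growth and survival. IGF2R, the cation-independent mannose 6-phosphate receptor, carries no such signal; it takes up IGF2 for degradation and sorts lysosomal enzymes. IGFBP1 to IGFBP6 bind the ligands outside the cell and set how much reaches the receptors, and proteases such as pappalysin release the ligands again. In pancreatic cancer, IGF ligands are produced largely by stromal cells, including fibroblasts and macrophages.

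The sequences just upstream of the RefSeq transcription starts are shown for the 3 members whose photon-arm values differed most clearly from control: Igfbp2 and Igf2r, which were higher, and Igfbp6, which was lower. Each holds the 250 bases before the start in mouse build GRCm38.p6, written 5′ to 3′ on the gene's strand, with capitals marking GC boxes (GGGCGG on either strand). The Igfbp2 window lies at chr1:72824230-72824479 on the plus strand, the Igf2r window at chr17:12769707-12769956 on the minus strand and the Igfbp6 window at chr15:102143936-102144185 on the plus strand.
Igfbp2: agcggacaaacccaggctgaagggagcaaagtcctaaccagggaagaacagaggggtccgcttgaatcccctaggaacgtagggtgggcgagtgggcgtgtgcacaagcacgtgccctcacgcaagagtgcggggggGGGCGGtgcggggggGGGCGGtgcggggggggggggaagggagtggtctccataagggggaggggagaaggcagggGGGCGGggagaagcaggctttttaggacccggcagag
Igf2r: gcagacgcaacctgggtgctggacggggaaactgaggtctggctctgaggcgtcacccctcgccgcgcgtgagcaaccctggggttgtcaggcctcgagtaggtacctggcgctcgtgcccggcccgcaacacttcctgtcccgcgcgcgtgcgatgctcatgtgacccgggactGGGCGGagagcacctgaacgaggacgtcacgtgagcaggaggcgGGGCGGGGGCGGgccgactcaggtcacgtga
Igfbp6: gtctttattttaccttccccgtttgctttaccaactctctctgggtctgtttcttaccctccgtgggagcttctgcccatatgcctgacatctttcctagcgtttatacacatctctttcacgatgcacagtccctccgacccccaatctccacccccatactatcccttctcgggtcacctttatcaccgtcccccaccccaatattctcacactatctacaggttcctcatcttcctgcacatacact
The Igfbp2 window shown, the first of 2 for this gene, holds 3 GC boxes, no TATA box (TATAAA on either strand) and 14 CpG dinucleotides, whereas the other, at chr1:72825137-72825386, holds no GC box, no TATA box and 11 CpG. The Igf2r window also has 3 GC boxes and no TATA box, with 27 CpG. In contrast, the Igfbp6 window has no GC box, 1 match to the TATA box and 7 CpG. A GC box occurs in 32.7% and a TATA box in 12.4% of 32851 windows of this length over the RefSeq table, whose median is 6 CpG. The members gave 14 windows, since some have more than 1 start. These matches describe the letters only.

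Igfbp2, a secreted binding protein with a preference for IGF2 that is also held at the cell surface through integrins, was at its highest in the carbon-ion controls and at its lowest in the photon controls. The gene lies at chr1:72824503-72852474 on the plus strand (GRCm38, GENCODE M21), and Igfbp5 lies 5457 bases past its 3′ end, on the opposite strand, with no gene between. In the photon controls Igfbp2 ranged from 0.720 to 4.83 CPM with a median of 2.06 and a mean of 2.48 ± 1.67 (SD, n = 8). In the photon-irradiated libraries it ranged from 3.04 to 30.2 CPM with a median of 7.15 and a mean of 8.97 ± 8.92 (SD, n = 8). All 8 photon-irradiated libraries were above the control median and 5 were above every control, while the other 3 lay within the control range. The fitted log2 fold change, the value on which the gene was chosen, was 1.85 ± 0.47 (SE). The highest value, 30.2 CPM, came from replicate 4; without it the log2 fold change was 1.26.

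After carbon ions Igfbp2 was not shown to change. In the carbon-ion controls it ranged from 3.09 to 24.1 CPM with a median of 13.6 and a mean of 13.2 ± 6.20 (SD, n = 8). In the carbon-ion irradiated libraries it ranged from 3.59 to 16.2 CPM with a median of 6.16 and a mean of 7.38 ± 4.43 (SD, n = 8). Although 7 of 8 irradiated libraries were below the control median, the ranges overlapped throughout and none was below every control. Its fitted change was -0.83 ± 0.45 (SE) on the log2 scale, and the quasi-likelihood test of edgeR gave an adjusted p of 0.903. No gene passed the threshold of 0.05 after carbon ions, which is 0.00% of 20474 tested. There were 1177 genes at an unadjusted p under 0.05, and DESeq2 called 17 genes. Within the D-titled libraries the means were 16.5 ± 5.35 CPM CPM (SD, n = 4) in controls and 6.31 ± 4.62 CPM (SD, n = 3) after irradiation. In M-titled libraries the means were 9.89 ± 5.63 (SD, n = 4) and 8.03 ± 4.72 CPM (SD, n = 5), and the log2 fold change with M-titled libraries alone was -0.26 (adjusted p = 0.920, edgeR).

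**Figure D1:**
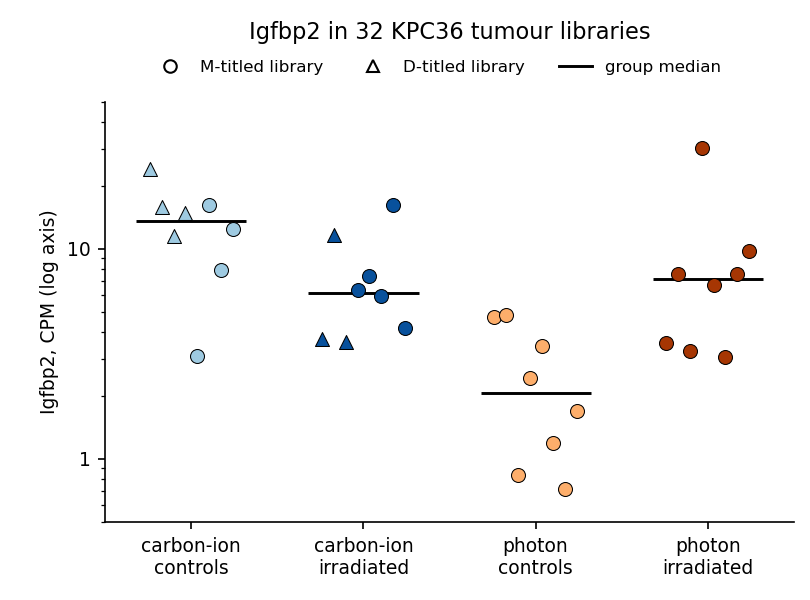
Igfbp2 level in each library, in CPM on a log axis, by group; circles are M-titled and triangles D-titled libraries, and bars are group medians. The photon controls, with a median of 2.06 CPM, sit below most other libraries, and photon-irradiated replicate 4 stands at 30.2 CPM.

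The control groups of the arms differed in Igfbp2 without any irradiation. The carbon-ion controls exceeded the photon controls by 2.40 ± 0.47 (SE) on the log2 scale, and 7 of 8 were above every photon control. With M-titled libraries alone this difference was 1.99. The mean of the photon-irradiated libraries lay between those of both carbon-ion groups, and the irradiated groups differed by -0.29 ± 0.45 (SE), carbon ions minus photons, or by 0.33 without photon-irradiated replicate 4. Ordered by mean, the groups ran from carbon-ion controls through photon-irradiated and carbon-ion irradiated libraries to photon controls, and the ranges of each pair of neighbours in that order overlapped. The carbon-ion effect minus the photon effect was -2.68 ± 0.65 (SE), or -2.11 with M-titled libraries alone. The photon effect, the control comparison and the difference of effects all use the same 8 photon controls, so they do not stand independently.

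Markers of other cell types varied beside Igfbp2. The epithelial score was 0.51 higher in the carbon-ion than in the photon controls, with 3 of 10 markers called higher, and 0.22 higher after photons, with 0 of 10 called. Hepatocytes are a main source of Igfbp2 in the body; the summed level of 7 hepatocyte markers ranged from 15.8 to 30.1 CPM in the carbon-ion controls, 8.49 to 52.7 in the carbon-ion irradiated, 5.28 to 16.7 in the photon controls and 7.83 to 25.8 in the photon-irradiated libraries. No hepatocyte marker was at 0 throughout the whole series, 4 passed the filter, and 2 of these were called higher after photons. Between the control arms 2 hepatocyte markers were likewise called higher in the carbon-ion controls, and the part of this list in the Igfbp2 values was not tested. With the epithelial score as a covariate, added after the data had been seen, the Igfbp2 log2 difference was 1.68 after photons, 1.98 between the control arms and -1.13 after carbon ions (adjusted p = 0.655, edgeR), and between the irradiated arms it was -0.83. In the carbon-ion controls the fibroblast score was 0.45 lower and the endothelial score 0.40 lower than in the photon controls. Of each list 2 markers were called lower. The share of all genes called was 9.14% between the control arms and 3.81% after photons. With the fibroblast score as a covariate Igfbp2 differed by 1.80 after photons and by 2.34 between the control arms.

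The binding proteins of these tumours were dominated by Igfbp4, Igfbp7 and Igfbp3. Per kilobase of exon, the mean over all 32 libraries was 359 CPM for Igfbp4, 314 for Igfbp7 and 230 for Igfbp3, against 25.05 for Igfbp5, 5.01 for Igfbp6 and 4.34 for Igfbp2. On this per-length scale Igfbp2 made up 0.776% ± 0.324 of the summed binding protein level in the carbon-ion controls and 0.153% ± 0.113 in the photon controls (SD, n = 8 each). Its share was 0.412% ± 0.207 after carbon ions and 0.517% ± 0.465 after photons (SD, n = 8 each). Igfbp2 was thus a minor binding protein by transcript level in all groups. Igfbp1, the liver-type binding protein, did not pass the filter and reached at most 0.222 CPM in any library.

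Of the 9 members other than Igfbp2, Igf2r rose and Igfbp6 fell after photons, and the other 7 did not pass the threshold (edgeR quasi-likelihood, adjusted over all genes). Over all genes 3.81% were called in this comparison, 351 higher and 430 lower. Nothing is read from the members' count, since this comparison also chose Igfbp2. The median log2 fold change of the 9 was 0.05, against 0.00 over all genes. After carbon ions none of the 10 was called.

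Igfbp6, which binds IGF2 in strong preference to IGF1, was lower after photons. In the photon controls it ranged from 3.93 to 19.3 CPM with a median of 7.37 and a mean of 7.91 ± 4.97 (SD, n = 8). In the photon-irradiated libraries it ranged from 1.83 to 5.41 CPM with a median of 4.06 and a mean of 3.75 ± 1.18 (SD, n = 8). All 8 irradiated libraries were below the control median and 4 were below every control. On the log2 scale it fell by 1.08 ± 0.29 (SE), with an adjusted p of 0.0333 in the edgeR test. This call was held in 9 of 16 fits that each left out 1 library and was lost without photon control replicate 3, 5 or 8 or without photon-irradiated replicate 1, 2, 3 or 7. Without photon control replicate 3, which had the highest level, the log2 fold change was -0.74 and the adjusted p 0.128. Without the other 6 the adjusted p was 0.0519 to 0.0694. The call was also lost without a filter on low counts (adjusted p = 0.0528, edgeR) and with only the groups of the comparison (adjusted p = 0.0515).

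Markers of fibroblasts and of other stromal and immune cells moved with Igfbp6. The fibroblast score was 8.14 ± 0.41 in the photon controls and 7.64 ± 0.30 after photons (SD, n = 8 each), with 2 of 11 markers called lower and none higher, and with this score as a covariate the Igfbp6 log2 fold change was -0.29 (adjusted p = 0.635, edgeR). With the epithelial score as a covariate it was -0.90 (adjusted p = 0.0825). The Igfbp6 call was kept with the skeletal muscle score as a covariate, at -1.22 (adjusted p = 0.0440, edgeR). It was also kept with the title letter as a covariate, at -1.08 (adjusted p = 0.0324, edgeR). After photons the macrophage score was also 0.45 lower (2 of 9 markers called lower), the endothelial score 0.38 lower (2 of 10) and the neutrophil score 1.16 lower (3 of 5), with none of these called higher. The T cell score was 0.78 lower, with 2 of 5 markers called lower and 1 called higher. The share of all genes called after photons was 3.81%. The part of these lists in the Igfbp6 change was not tested. Within groups, over all libraries, the relation of Igfbp6 with the fibroblast score was the closest of 60 between a member and a marker list, as described further on. With M-titled libraries alone Igf1 had the higher r with that score, at 0.80 against 0.79.

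Carbon ions left Igfbp6 without a detectable difference. It ranged from 3.02 to 10.6 CPM in the carbon-ion controls, with a mean of 4.98 ± 2.45 (SD, n = 8). After carbon ions it ranged from 2.96 to 8.40 CPM, with a mean of 5.64 ± 1.74 (SD, n = 8). The log2 fold change was 0.18 ± 0.29 (SE) with an adjusted p of 0.997, and the difference of the effects, carbon ion minus photon, was 1.26 ± 0.41 with an adjusted p of 0.190 (edgeR). Between the control arms, carbon-ion minus photon, Igfbp6 differed by -0.67 ± 0.29 (SE), with an adjusted p of 0.150 (edgeR). Leaving out 1 library gave -0.92 to -0.33, and 1 of 16 such fits passed the threshold. The photon change, the difference of the effects and this comparison use the same photon controls. The gene lies at chr15:102144362-102149511 on the plus strand.

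Igfbp4, an inhibitor of IGF action that pappalysin cleaves, was the most abundant member. In the photon controls it ranged from 1480 to 2258 CPM with a median of 1824, and in the photon-irradiated libraries from 1132 to 1696 CPM with a median of 1426. All 8 irradiated libraries were below the control median and 5 were below every control. Even so, the log2 fold change of -0.32 ± 0.13 (SE) did not pass the threshold (adjusted p = 0.156, edgeR). In the carbon-ion arm the means were 1580 ± 297 CPM in controls and 1547 ± 376 after irradiation (SD, n = 8 each), and the log2 fold change was -0.03 (adjusted p = 0.997, edgeR). Igfbp4 lies at chr11:99041244-99054392 on the plus strand.

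Igfbp3, the main carrier of IGFs in serum and a p53 target, had means of 609.5 ± 116.5 CPM in the photon controls and 758 ± 177 after photons (SD, n = 8 each). Its medians there were 568 and 697 CPM, 7 of 8 irradiated libraries were above the control median, and the ranges overlapped. The log2 fold change was 0.31 ± 0.15 (SE; adjusted p = 0.233, edgeR). After carbon ions the means went from 707 ± 137 to 800 ± 225 CPM (SD, n = 8 each), a log2 fold change of 0.18 with an adjusted p of 0.997 in edgeR. Igfbp3 lies at chr11:7206086-7213923 on the minus strand, 3539 bases from the end of Igfbp1.

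Igfbp5, a binding protein that also attaches to the extracellular matrix and whose gene (chr1:72857932-72874884, minus strand) adjoins Igfbp2 tail to tail, passed the threshold in no comparison. Its means were 171 ± 105 CPM in the carbon-ion controls, 167 ± 68.5 after carbon ions, 120.7 ± 53.7 in the photon controls and 143 ± 53.0 after photons (SD, n = 8 each). The highest single value was 408 CPM in carbon-ion control replicate 6. Its photon log2 fold change was 0.25 ± 0.30 (SE; adjusted p = 0.684, edgeR), and the control arms differed by 0.51 ± 0.30 (SE; adjusted p = 0.329). Without carbon-ion control replicate 6 the latter was 0.20. The within-group correlation of Igfbp5 with Igfbp2 was r = 0.15 over 32 libraries (permutation p = 0.416, adjusted over 45 member pairs 0.645).

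Igfbp7, a matrix protein of vessels with low affinity for IGFs, had nearly the same mean in each group. The means were 373 ± 71.2, 377 ± 74.1, 371 ± 78.2 and 397.5 ± 60.4 CPM (SD, n = 8 each) in carbon_ctrl, carbon_treated, photon_ctrl and photon_treated. The log2 fold changes were 0.02 ± 0.13 after carbon ions and 0.10 ± 0.13 after photons (SE), neither past the threshold. Igfbp7 (chr5:77349240-77408041, minus strand) overlaps Polr2b on the opposite strand, which had a mean of 85.7 CPM; the strand setting of the counting is not given in the sources used here.

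**Figure D2:**
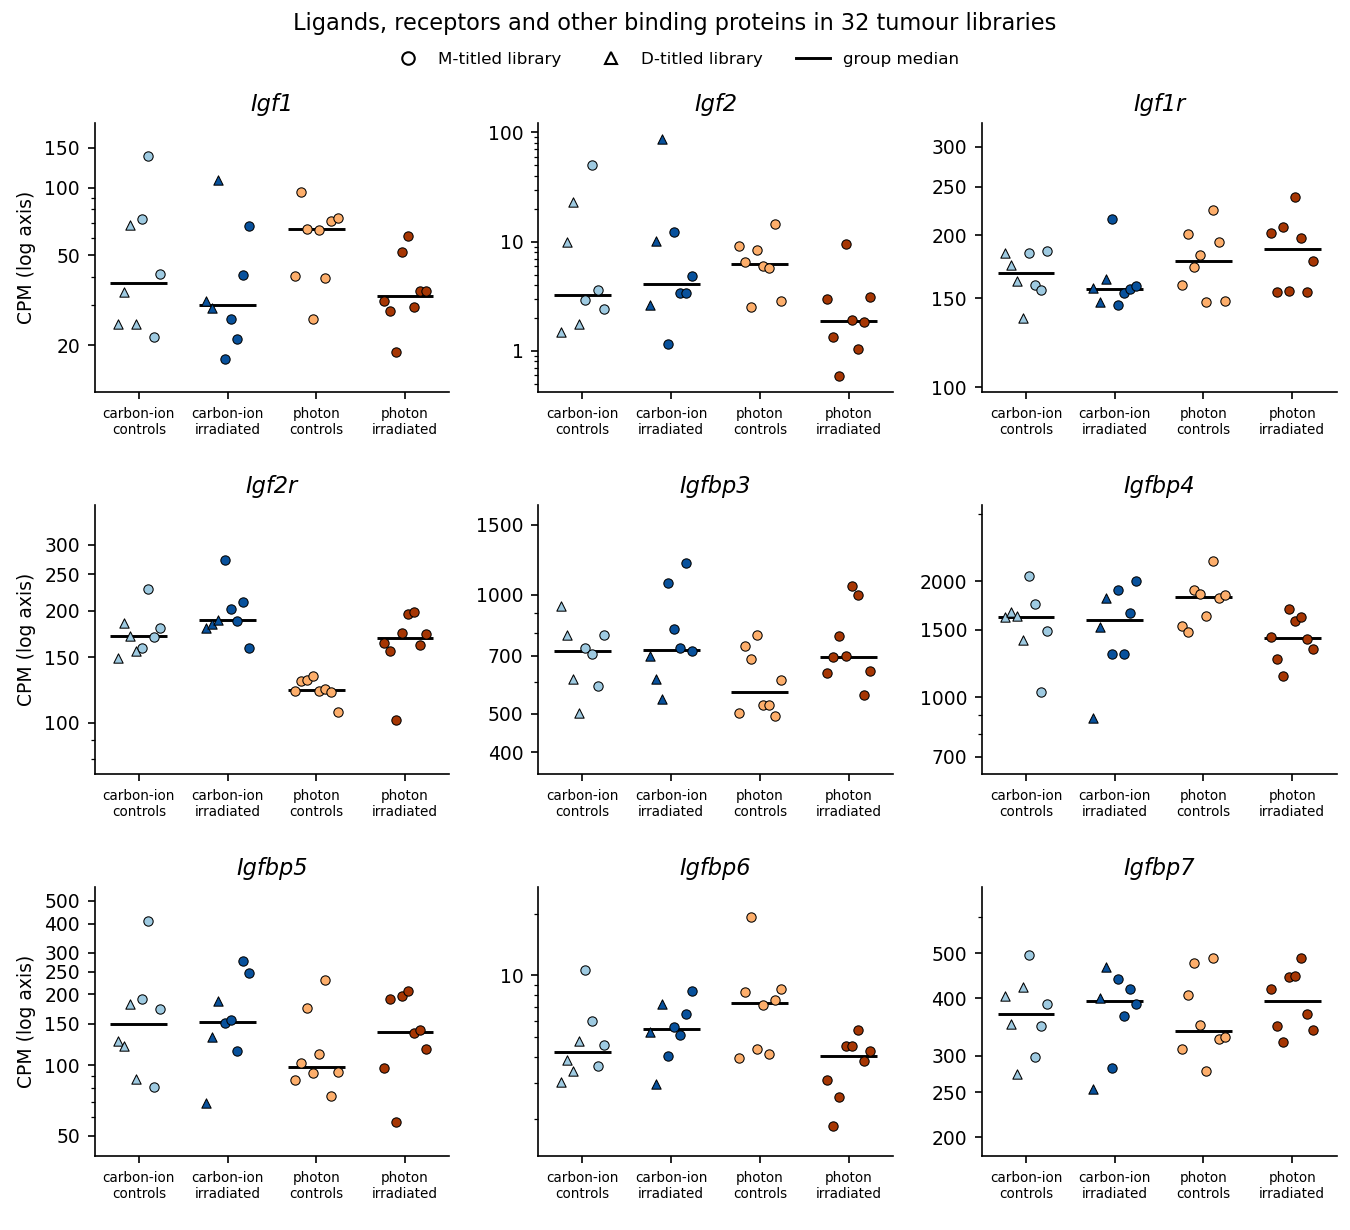
Level of the 9 other members in each library, in CPM on log axes that differ between panels, by group; circles are M-titled and triangles D-titled libraries, and bars are group medians. Igf2r in the photon controls forms a tight band around 123 CPM below both carbon-ion groups, and Igf2 and Igf1 each have single high carbon-ion libraries.

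Among the receptors, Igf2r rose after photons, and it was lower in the photon controls than in the carbon-ion controls. In the photon controls it ranged from 107 to 133 CPM with a median of 123 and a mean of 123.7 ± 8.12 (SD, n = 8). In the photon-irradiated libraries it ranged from 102 to 198 CPM with a median of 168 and a mean of 165 ± 29.9 (SD, n = 8). There, 7 of 8 libraries were above every control and 1, replicate 3, was below every control. The rise was 0.42 ± 0.11 (SE) on the log2 scale with an adjusted p of 0.0241 in edgeR, and it was 0.50 with an adjusted p of 0.00663 without replicate 3. It passed in 13 of 16 fits that omitted a single library; the adjusted p was 0.0525 without photon control replicate 3, 0.0605 without photon control replicate 8 and 0.0571 without photon-irradiated replicate 6. With the fibroblast score as a covariate the log2 fold change was 0.46 (adjusted p = 0.0854, edgeR). With the skeletal muscle score it was 0.42 (adjusted p = 0.0654), and neither passed the threshold. With the epithelial score it was 0.39 and passed (adjusted p = 0.0473).

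The carbon-ion controls had more Igf2r than the photon controls, with no overlap. They ranged from 149 to 228 CPM with a median of 171 and a mean of 175 ± 24.7 (SD, n = 8). The difference was 0.50 ± 0.11 (SE) on the log2 scale, with an adjusted p of 0.00333 in edgeR, and it stayed past the threshold in all 16 fits that left out 1 library and in all 10 other alternatives. Of the 9 members tested here Igf2r was the 1 called, beside 9.14% of all genes; ranges of the control groups did not overlap for 1.31% of all genes. After carbon ions Igf2r ranged from 159 to 274 CPM with a mean of 198 ± 34.2 (SD, n = 8), a log2 fold change of 0.18 ± 0.11 (SE) that did not pass the threshold (adjusted p = 0.935, edgeR). The difference of the effects was -0.24 ± 0.15 (SE; adjusted p = 0.485), so the photon and carbon-ion changes of Igf2r were not shown to differ. Igf2r (chr17:12682406-12769664, minus strand) overlaps the antisense transcript Airn, which averaged 25.3 CPM.

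Igf1r, the signalling receptor, differed little between groups. Its group means were 168 ± 17.6 CPM in the carbon-ion controls, 162 ± 22.3 after carbon ions, 179 ± 27.4 in the photon controls and 186 ± 30.9 after photons (SD, n = 8 each). The log2 fold change was -0.05 ± 0.10 (SE) after carbon ions (adjusted p = 0.997, edgeR) and 0.05 ± 0.10 after photons (adjusted p = 0.797). In the comparison of irradiated arms, carbon ions minus photons, it was -0.20 ± 0.10 (adjusted p = 0.214). Igf1r lies at chr7:67952827-68233668 on the plus strand. Per kilobase of exon Igf1r averaged 10.4 CPM and Igf2r 17.8.

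**Figure D3:**
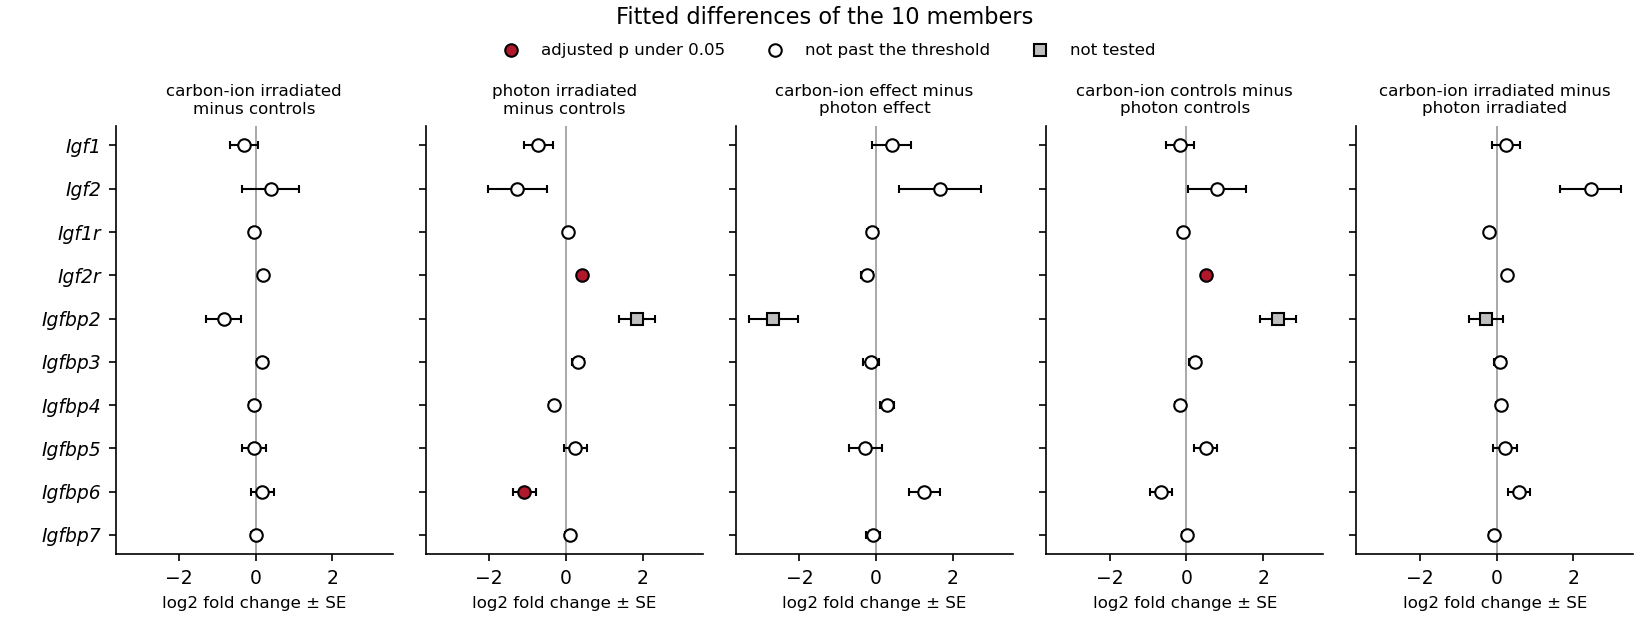
Fitted log2 fold change with its standard error for each member in 5 comparisons; filled red points passed an adjusted p of 0.05, open points did not, and grey squares are Igfbp2 values given without a test. Igf2r is called after photons and between the control arms, and Igfbp6 after photons; the widest errors are those of Igf2.

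The ligands varied widely between libraries of the same group. Igf1 ranged from 26.1 to 95.7 CPM in the photon controls, with a median of 65.4 and a mean of 59.6 ± 22.5 (SD, n = 8). After photons it ranged from 18.7 to 60.9 CPM, with a median of 33.2 and a mean of 36.3 ± 13.6 (SD, n = 8). All 8 irradiated libraries were below the control median, yet 7 lay within the control range. The log2 fold change of -0.72 ± 0.37 (SE) did not pass the threshold (adjusted p = 0.254, edgeR), and with the fibroblast score as a covariate it was 0.05. In the carbon-ion arm Igf1 ranged from 21.8 to 138 CPM in controls and from 17.3 to 108 after irradiation. The log2 fold change there was -0.32 ± 0.36 (SE, adjusted p = 0.997, edgeR), or -0.97 with M-titled libraries alone (adjusted p = 0.540). From controls to irradiated libraries the mean went from 38.1 to 56.3 CPM in D-titled and from 68.5 to 34.7 CPM in M-titled libraries. Igf1 lies at chr10:87858265-87937042 on the plus strand.

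Igf2, an imprinted fetal growth factor that remains expressed in muscle and mesenchyme, was at a few CPM in most libraries and far higher in a few. In the carbon-ion controls its median was 3.28 CPM with a highest value of 50.5 in replicate 6, and after carbon ions the median was 4.14 with a highest value of 87.0 in replicate 3. In the photon controls the values ran from 2.50 to 14.5 CPM with a median of 6.25, and after photons from 0.587 to 9.59 with a median of 1.88. After photons 7 of 8 libraries were below the control median and 5 below every control. The log2 fold change was -1.27 ± 0.77 (SE) after photons (adjusted p = 0.350, edgeR) and 0.39 ± 0.74 after carbon ions (adjusted p = 0.997).

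Between the irradiated groups, carbon ions minus photons, the Igf2 difference was 2.45 ± 0.79 (SE) with an adjusted p of 0.0603 in edgeR and 0.0168 in DESeq2. No member of the 9 was called there in edgeR, beside 5.08% of all genes. Leaving out 1 library at a time gave 0.94 to 3.06, the 0.94 without carbon-ion irradiated replicate 3, and M-titled libraries alone gave 0.85. The adjusted p was under 0.05 without carbon-ion irradiated replicate 1, 4 or 8 or without photon-irradiated replicate 4. Skeletal muscle markers moved in the same libraries: their score was 3.78 ± 2.96 in the photon controls and 0.22 ± 2.58 after photons (SD, n = 8 each), with 0 of 10 markers called, and with this score as a covariate the irradiated groups differed by 0.59 and the photon effect was -0.25. Igf2 lies at chr7:142650766-142666816 on the minus strand, 72.6 kb from H19, the non-coding RNA of the same imprinted domain. H19 averaged 126.5 ± 121.8 CPM in the carbon-ion controls, 113.8 ± 144.8 after carbon ions, 69.8 ± 40.1 in the photon controls and 44.1 ± 19.3 after photons (SD, n = 8 each).

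The difference of the effects was past the threshold for none of the 9 tested members, beside 0.0781% of all genes. It was 1.66 ± 1.07 (SE) for Igf2 (adjusted p = 0.5002, edgeR) and 0.29 ± 0.19 for Igfbp4 (adjusted p = 0.510). The Igf2 value was 0.13 without carbon-ion irradiated replicate 3 and 2.53 without carbon-ion control replicate 6. For Igfbp3, Igfbp5, Igfbp7, Igf1 and Igf1r the adjusted p ranged from 0.752 to 0.862.

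A list of 22 other genes of the IGF axis held proteases, stanniocalcins, the insulin receptor and its substrates, IGF2 mRNA-binding proteins and others. Of these, 18 were tested. None was called after photons or after carbon ions or in the difference of effects, where 3.81%, 0.00% and 0.0781% of all genes were. At an unadjusted p under 0.05 there were 4, 2 and 0 of 18, beside 21.5%, 5.75% and 13% of all genes. The median log2 fold change of the 18 was -0.08 after photons, against 0.00 over all genes, and -0.11 after carbon ions, against 0.01. Between the control arms 2 of 18 were called, both lower in the carbon-ion controls, beside 9.14% of all genes, so this count is near the background. Igf2bp1, a fetal RNA-binding protein that binds Igf2 mRNA, averaged 4.37 ± 1.94 CPM in the carbon-ion controls and 11.7 ± 2.67 in the photon controls (SD, n = 8 each), a log2 difference of -1.42 ± 0.22 (SE; adjusted p = 0.000390, edgeR). The ranges, 2.28 to 7.17 and 8.51 to 15.7 CPM, did not overlap, which held for 1.31% of all genes. Stc1, a stanniocalcin that inhibits pappalysin, averaged 38.3 ± 22.5 and 74.1 ± 26.9 CPM (SD, n = 8 each), a difference of -0.95 ± 0.25 (SE; adjusted p = 0.0167).

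Between the irradiated groups, carbon ions minus photons, 2 of 18 genes of the same list were called, beside 5.08% of all genes. Igf2bp1 was again lower in the carbon-ion arm, at 3.69 ± 1.10 against 7.35 ± 2.02 CPM (SD, n = 8 each; log2 difference -0.995, adjusted p = 0.0190, edgeR). Ctsd, a lysosomal protease that is sorted by mannose 6-phosphate receptors and can cleave binding proteins, was higher at 724 ± 109 against 540 ± 97.4 CPM (SD, n = 8 each; log2 difference 0.42, adjusted p = 0.0219). The lowest Ctsd value after photons was 315 CPM.

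The 24 genes of signalling below the receptors, from the adaptors through PI3K, AKT and mTOR to the FOXO factors, were all tested. None was called after photons, after carbon ions or in the difference of effects, beside 3.81%, 0.00% and 0.0781% of all genes. At an unadjusted p under 0.05 there were 4, 0 and 1 of 24, beside 21.5%, 5.75% and 13% of all genes. Between the control arms 3 were called, beside 9.14% of all genes, and between the irradiated arms 2, beside 5.08%. Between the control arms Foxo4, a transcription factor that AKT restrains, and Rheb, the GTPase that activates mTOR, were higher in the carbon-ion controls, by 0.34 (adjusted p = 0.0122, edgeR) and 0.32 (adjusted p = 0.0242) on the log2 scale. Tsc1, which restrains Rheb, was lower, with a log2 difference of -0.24 (adjusted p = 0.0496). Between the irradiated arms Rps6kb1, the S6 kinase, and Rictor, a subunit of mTOR complex 2, were lower after carbon ions than after photons, at -0.27 (adjusted p = 0.0340) and -0.36 (adjusted p = 0.0372). These are differences between arms and not effects of a beam against its own controls.

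Within groups, several members followed the markers of stromal cells. Each member's log2 CPM and the score of 6 marker lists were centred on their group means and correlated over the 32 libraries, with permutation of libraries within groups and adjustment over 60 relations. By Pearson's r 14 relations passed 0.05 and by Spearman's rho 12, all of them positive. Igfbp6 and the fibroblast score gave r = 0.80 and rho = 0.82 (adjusted permutation p = 0.000600 and 0.000300), and r was 0.77 without the 2 libraries farthest from the median score. Igf1 and the fibroblast score gave r = 0.74 and rho = 0.78 (adjusted permutation p = 0.000600 and 0.000300), with 0.76 without those 2. Igfbp5 (r = 0.59, rho = 0.66) and Igfbp4 (r = 0.53, rho = 0.55) also followed it, with adjusted permutation p-values of 0.00888 and 0.0279 for r and 0.00280 and 0.0212 for rho.

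The other 10 relations involved the remaining lists. Igf1 and Igfbp6 followed the macrophage score, with r = 0.56 and 0.52. The endothelial score went with Igfbp6 (r = 0.55), Igf1 (r = 0.53), Igfbp7 (r = 0.47) and Igfbp4 (r = 0.44); of these only Igfbp4 also passed by rank, with rho = 0.49. Igf1 and Igfbp4 followed the adipocyte score (r = 0.51 and 0.46). By rank alone, Igfbp3 passed with the endothelial score (rho = 0.51, adjusted permutation p = 0.0248) and Igfbp5 with the adipocyte score (rho = 0.55, adjusted permutation p = 0.0212). Igf2 followed the skeletal muscle score with r = 0.65 and rho = 0.64 (adjusted permutation p = 0.00240 and 0.00360), and r was again 0.65 without the 2 farthest libraries. The scores share libraries and are not independent of each other.

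Igfbp2 was the 1 member related to the epithelial score, at the edge of the threshold. It gave r = 0.45 and rho = 0.46, with adjusted permutation p-values of 0.0498 and 0.0533, and r was 0.37 without the 2 farthest libraries. With the 25 M-titled libraries alone r was 0.47 with an adjusted permutation p of 0.112. Igfbp2 thus did not pass with any of the 5 stromal, muscle or fat lists, where r ran from -0.27 to 0.16. With M-titled libraries 7 of the 60 relations passed, among them Igfbp6 and Igf1 with the fibroblast score (r = 0.79 and 0.80) and Igf2 with the muscle score (r = 0.62). Igfbp5 and Igfbp4 with the fibroblast score had r = 0.57 and 0.56 there and did not pass (adjusted permutation p = 0.0693 and 0.0806).

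**Figure D4:**
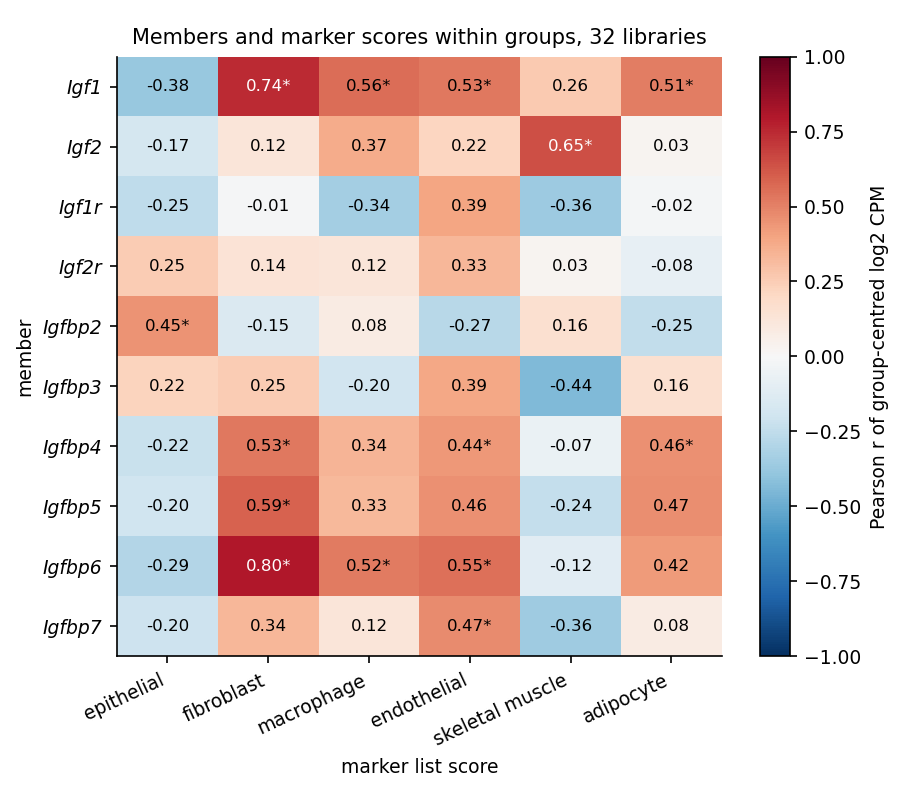
Pearson correlation of each member (rows) with each marker score (columns), both centred on group means, over 32 libraries; the number is r and an asterisk marks an adjusted permutation p under 0.05. The fibroblast column holds the highest values, 0.80 for Igfbp6 and 0.74 for Igf1, and Igfbp2 has its single mark under epithelial.

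**Figure D5:**
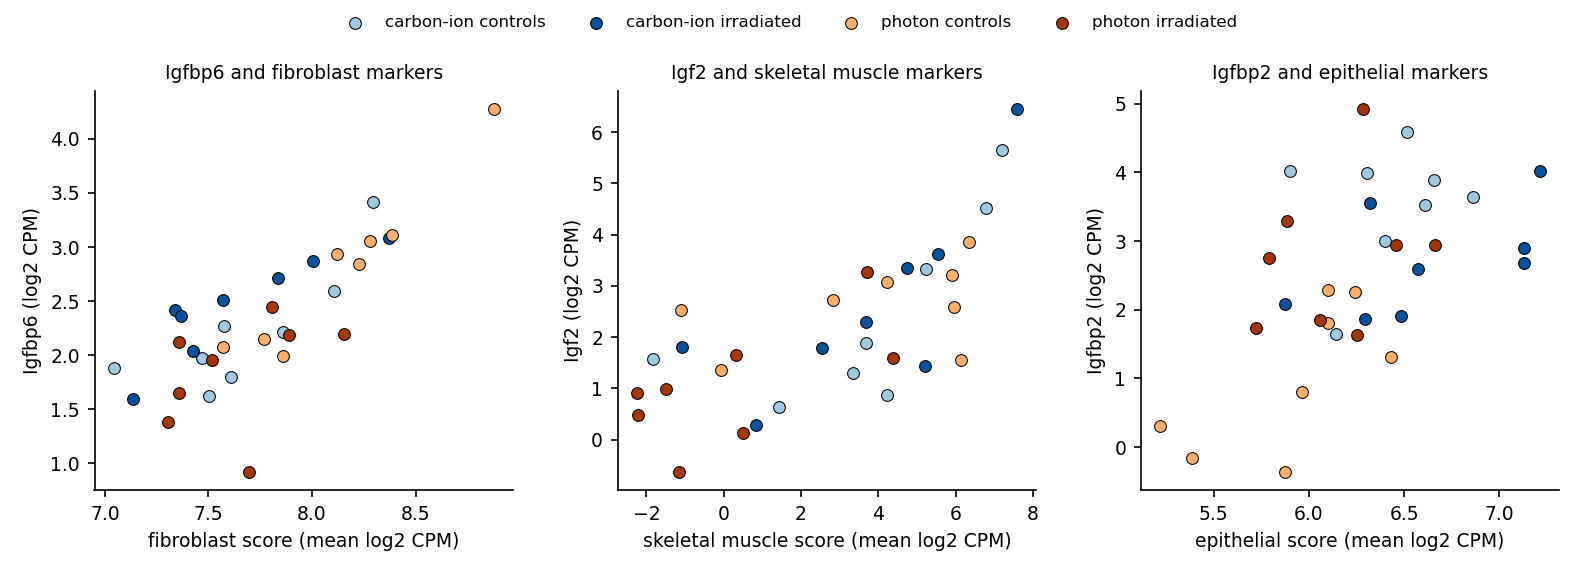
Log2 CPM of 3 members against the marker score (mean log2 CPM) each followed, 1 point per library coloured by group. Igfbp6 climbs with the fibroblast score in each group, Igf2 is highest in libraries with muscle scores near 7, and Igfbp2 shows a looser relation with the epithelial score.

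Among pairs of members, 6 of 45 within-group Pearson correlations passed an adjusted permutation p of 0.05, all of them positive, in an analysis added after the data had been seen. They joined Igfbp4 with Igfbp5 (r = 0.70) and with Igfbp7 (r = 0.63), Igf1 with Igfbp5 and with Igfbp6 (r = 0.59 each), Igfbp3 with Igf1r (r = 0.51) and Igf1 with Igf2 (r = 0.61). The last did not pass by rank (rho = 0.42, adjusted p = 0.126) and rested on 2 libraries, with r = 0.35 without them. Igfbp4 with Igfbp6 passed by rank alone (rho = 0.51, adjusted permutation p = 0.0372). Igfbp2 was in none of these pairs.

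The genes whose within-group pattern was most like that of Igfbp2, over 32 libraries and 11563 genes with a mean log2 CPM of at least 2, were Tfcp2l1 (r = 0.75), Pdgfrl (0.72), Smpd3 (0.71), Bace2 (0.70) and Zbtb7c (0.70). Tmem252 (r = -0.64), Slco5a1 (-0.63) and Erc2 (-0.62) ran most opposite. These are the extremes of 11563 values and are given without a test. Tfcp2l1, a transcription factor of epithelia, had fitted log2 differences of 0.52 after photons, -0.46 after carbon ions and 1.09 between the control arms, against 1.85, -0.83 and 2.40 for Igfbp2. The other 4 positive correlates had 0.02 to 0.29 after photons, -0.24 to 0.12 after carbon ions and 0.40 to 0.63 between the control arms.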

How the data were processed

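Bulk RNA was measured in 32 KPC36 tumour libraries with a stranded mRNA kit, per the labels' protocols. Values in the deposited table are estimated counts, 1 row per gene symbol; the submitters' processing notes name FastQC 0.12.0, Trimmomatic 0.32, RSEM 1.3.3 and the build mm10, with no role or order, and how strand was handled is not given in the sources used here. Of 853648 values above 0, 4 were whole within 1e-06, so values were rounded before testing, which changed totals by at most 0.00403%. Of 55103 rows, 16677 were at 0 in all libraries. The planned test assumed whole counts or rounded estimates and was kept.

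In R 4.3.3, edgeR 4.0.16 (filterByExpr with a minimum count of 10, TMM scaling, glmQLFit and glmQLFTest) fitted 1 coefficient per group to all libraries and 20474 genes. P-values were adjusted by Benjamini-Hochberg over all genes of a comparison, with a threshold of 0.05, and standard errors come from the F statistic. CPM uses TMM-scaled totals, and log2 CPM a prior count of 2. Relations were tested two-sided with 100000 permutations within groups. DESeq2 1.42.0, other scalings and filters, covariates and left-out libraries were alternatives. The script for the tests was checked on simulated data.

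The members, lists and tests were chosen with earlier results of these data known. Every member is reported; of the 2 pathway lists, up to 6 genes with the smallest adjusted p under 0.05 per comparison are named, and of genes most like Igfbp2 the 5 highest and 3 lowest correlations, predicted genes left out. Coordinates are from GENCODE M21 (GRCm38) and promoter windows from RefSeq (GRCm38.p6), in which all 10 members were matched by symbol. Replicate numbers follow the order of deposition.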

Additional observations from a re-analysis of the deposited data

Results flagged for a closer look

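Each of the 10 members was examined in each group of 8 libraries, 40 groups in all, for a highest or lowest library that stands far from the rest; chance marks about 1 in 20 groups, and 3 were marked, where the gap to the nearest library exceeds 0.526 of the range of log2 CPM. Igf1r in carbon-ion irradiated replicate 4 was the highest of its group at 216 CPM, with a gap of 0.699 of the range; without that library the carbon-ion log2 fold change of Igf1r was -0.12. Igf2r in photon control replicate 8 was the lowest of its group at 107 CPM, with a gap of 0.549. Igf2r in photon-irradiated replicate 3 was the lowest of its group at 102 CPM, with a gap of 0.637. That library also had the lowest total of all, 13891863 estimated counts, and the lowest level of its group for Igfbp4, Igfbp5, Igfbp7, Igf1 and Igf2.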

How the results depend on the processing

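The number of members called after photons (2 of 9) was 1 without a filter on low counts, with only the groups of the comparison, with the skeletal muscle score and with the epithelial score as a covariate, 0 with the fibroblast score, and 0 to 2 when 1 library was left out. Between the control arms it was 1 to 2 and between the irradiated arms 0 to 1 when 1 library was left out, and 1 with DESeq2 for the irradiated arms. Of the 60 relations, 7 passed with M-titled libraries alone, against 14 in all. The fibroblast and epithelial covariates and the member pairs were added after seeing the data. For all genes after photons, 781 were called, 1518 with DESeq2, and 239 or 1656 when replicate 3 or 2 of the photon controls was left out; for the irradiated arms 1041 were called, 2018 with DESeq2, and 108 or 2159 when replicate 3 of the photon-irradiated or of the carbon-ion irradiated group was left out; for the control arms 1871, or 1178 without photon control replicate 3; for the difference of effects 16, 270 with DESeq2, 5 without carbon-ion irradiated replicate 6 and 108 without photon control replicate 2.

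Some values that passed no threshold changed sign; the cause was not tested. On the log2 scale, M-titled libraries alone gave, after carbon ions, 0.0615 for Igfbp4, -0.0487 for Igfbp6 and -1.56 for Igf2, in the difference of effects 0.0689 for Igfbp3, -0.262 for Igf1 and -0.272 for Igf2, between the control arms 0.218 for Igf1 and between the irradiated arms -0.0439 for Igf1. The title letter as a covariate gave -0.0667 for Igf2 after carbon ions. Upper-quartile scaling gave -0.00665 for Igfbp7 after carbon ions and -0.00591 between the control arms. The skeletal muscle score gave -0.0350 for Igf1r after photons, 0.0228 for Igfbp3 and 0.0293 for Igfbp7 in the difference of effects, and 0.0395 for Igfbp7 and -0.0711 for Igf1 between the irradiated arms. The fibroblast score gave 0.0380 for Igfbp5 after carbon ions, 0.0538 for Igf1 after photons, -0.276 for Igf1 in the difference of effects and 0.408 for Igf1 between the control arms. The epithelial score gave 0.00667 for Igfbp4 and 0.106 for Igfbp5 after carbon ions, 0.170 for Igf1 between the control arms and -0.0451 for Igfbp3 between the irradiated arms.

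Leaving out 1 library gave, after carbon ions, -0.103 to 0.0566 for Igfbp4, -0.195 to 0.278 for Igfbp5, -0.0371 to 0.0866 for Igfbp7, -0.677 to 0.0489 for Igf1 and -1.14 to 1.26 for Igf2. In the difference of effects it gave -0.498 to 0.0216 for Igfbp5, and between the control arms -0.0620 to 0.0907 for Igfbp7 and -0.0886 to 1.05 for Igf2. Between the irradiated arms it gave -0.551 to 0.330 for Igfbp2, -0.0265 to 0.170 for Igfbp3 and -0.115 to 0.383 for Igf1. No paired analysis was possible because replicate numbers follow the order of deposition and the labels pair no libraries.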
